A study of Mus musculus with 8 samples.

Results

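The genes described here are 38 genes of the nuclear envelope, 27 that encode proteins of the nuclear pore complex and 11 that encode proteins of the nuclear lamina and the inner nuclear membrane. They are a list of names, drawn up with earlier results of these data known, and all 38 were found among the 54838 genes of the deposited count table. All 38 also passed the filter on low counts that left 19101 genes for testing. The data are poly(A) RNA-seq of iPSC (induced pluripotent stem cells, reprogrammed cells that the sample titles call ESC) from male mouse clones, in 4 states of the cell cycle with 2 libraries each. All cells were maintained on irradiated feeders, in FBS and LIF plus inhibitors of MEK and GSK3 (2i), a medium that holds pluripotent cells in a naive condition. Asynchronous cells were a cycling population without arrest. For the other 3 states the cells had been moved to gelatin the day before and given 200 ng/ml nocodazole for 6 h, which blocks microtubule assembly and stops cells in mitosis, and then shaken off the plate. Mitotic cells were taken at once, early G1 cells 1 h and late G1 cells 3 h after the drug was washed out. Asynchronous cells therefore differed from the others in plating, drug and shake-off as well as in cycle phase, and these cannot be told apart. The labels name 2 independent clones as the biological replicates but do not say which library came from which clone. The p-values rest on the spread between the 2 libraries of a state, pooled over the states fitted. Whether that is spread between clones cannot be told.

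A nuclear pore complex is a channel through the nuclear envelope, built of a scaffold (the outer rings of the Y complex and an inner ring), proteins that anchor it in the membrane, phenylalanine-glycine rich proteins that fill the channel, filaments on the cytoplasmic side and a basket on the nuclear side. The lamina is a mesh of lamin filaments under the inner nuclear membrane, tied to chromatin and membrane by proteins of the LEM, SUN and lamin B receptor families. In mammalian mitosis the envelope, lamina and pores are taken apart, and they are put together again on the chromatin of the daughter nuclei at mitotic exit, largely from proteins that persisted through division. Pluripotent cells are known for low A-type lamin and high B-type lamin.

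Total counts ran from 20410621 to 25615244 per library, and the 38 genes had between 134 counts (Nup35, lowest library) and 15368 counts (Lmnb1, highest library). Levels are given as counts per 1000000 counts of a library (CPM) after TMM scaling, and differences between states are log2 fold changes of edgeR's quasi-likelihood test fitted to all 8 libraries, called where the p adjusted by Benjamini-Hochberg over the 19101 genes was under 0.05. Here "called", "rose" and "fell" refer to that fit, unless another is named. Both values are shares of the messenger RNA in a library: total RNA per cell was not measured, and fewer cells of a type and less RNA per cell cannot be told apart. The summed level of 10 pluripotent cell markers was 5679 to 7311 CPM, with Pou5f1 at 1472 to 2121 CPM in every library. The summed level of 23 feeder fibroblast markers was 4920 and 4271 CPM in the asynchronous libraries against 1577 to 1962 CPM in the other 6. Most of the sum in those 6 was Fn1 (673 to 997 CPM) and Sparc (712 to 909 CPM). Sparc stood at 776 and 1021 CPM in the asynchronous libraries. Of the 22 tested, 18 fell from asynchronous to mitotic cells and 1 rose (Pdgfra), with a median log2 difference of -4.52. Col1a1 stood at 509 and 554 CPM against 5.96 to 21.5 CPM, and no tested feeder marker other than Dcn was at 0 in any library. The 10 macrophage markers summed to 85.9 and 85.5 CPM in asynchronous, 115 and 99.1 CPM in mitotic and 42.3 to 49.4 CPM in G1 libraries, where Lyz2 was at 0 to 0.756 CPM against 28.7 and 30.8 CPM in mitotic cells and Adgre1, C1qa, C1qb, C1qc and Tyrobp were at 0 in at least 1 library. The replicates lay far apart in asynchronous cells, moderately in mitotic cells and close together in G1 (biological coefficient of variation 0.292 and 0.183, against 0.0506 in early and 0.0417 in late G1).

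In arrested mitotic cells against asynchronous cells, 14 of the 38 genes rose and 2 fell (42.1% called, against 40.7% of all genes tested). The share that rose was 36.8%, against 18.3% of all genes, and the share that fell was 5.26%, against 22.4%. The genes' median log2 difference was 0.35, beside -0.05 over all genes, and 30 of the 38 differences were above 0. The rises covered the B-type lamins Lmnb1 and Lmnb2, the 3 channel genes, 4 of 9 Y complex genes, 2 of 3 membrane anchors, Nup93, Nup214 and Sun2, and the falls were Nup210 and Lemd2. These calls came with the loss of feeder markers given above, whose part in them was not tested. With the 2 groups fitted alone 6 rose and 2 fell (21.3% of all genes were called there), and Ahctf1, Ndc1, Nup107, Nup214, Nup54, Nup93, Nup98 and Sun2 lost their calls, with adjusted p from 0.0679 (Nup93) to 0.139 (Sun2). Without mitotic replicate 1 the count was also 6 and 2, with the calls of Ahctf1, Nup107, Nup214, Nup54, Nup93, Nup98, Pom121 and Sun2 lost, without mitotic replicate 2 it was 10 and 2, and without asynchronous replicate 1 it was 23 and 4. Without asynchronous replicate 2 it was 16 and 5, and without replicate 1 of both groups it was 25 and 4, with 59.3% of all genes called and all 16 calls kept.

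In late G1 against asynchronous cells, 20 of the 38 rose and 3 fell (60.5% called, against 48.7% of all genes). The share that rose was 52.6% against 22.7% of all genes, the share that fell was 7.89% against 26%, and the median log2 difference was 0.47 beside -0.03. This comparison uses the same asynchronous libraries as the one before it, so the counts of both rest on 1 pair of controls. Fitted with those 2 groups alone, 14 rose and 2 fell, with 35.5% of all genes called, and Ahctf1, Banf1, Nup214, Nup98, Sun1, Tmpo and Tpr lost their calls (adjusted p from 0.0553 (Tmpo) to 0.135 (Sun1)). Without either late G1 library the calls of those 7 genes and of Sec13 were lost both times. That of Lemd3 was also lost without replicate 1 and that of Nup93 without replicate 2. The median log2 difference of the 38 was then 0.49 and 0.51, beside -0.04 over all genes both times. Feeder markers moved here too (19 of 22 lower, 1 higher), and their part was not tested. In all 6 synchronised libraries 17 of the 38 lay above both asynchronous libraries (44.7%, against 23.2% of all genes) and 4 lay below both (10.5%, against 26.6%), namely Seh1l, Nup210, Rae1 and Lemd2.

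Between the arrest and G1 few of these genes passed the test. In early G1 against mitotic cells, 1 of the 38 rose (Lemd3) and 0 fell, 2.63% called against 4.63% of all genes (3.21% rose and 1.42% fell), with a median log2 difference of 0.02. In late G1 against mitotic cells, 1 rose (Lemd3) and 1 fell (Sun2), 5.26% called against 9.48% of all genes (5.43% rose and 4.04% fell). The fit across all libraries pools the spread of the 4 states, the wide asynchronous replicates and the close G1 ones alike. This holds here and in the comparisons with asynchronous cells, and its part in the number of calls was not tested. When only the 2 groups compared were fitted, 8 rose and 2 fell in early G1 against mitotic cells (15.3% of all genes called) and 8 rose and 2 fell in late G1 against mitotic cells (22.2%). In that fit the 8 that rose in early G1 were Lemd3, Nup153, Tpr, Nup155, Nup160, Nup205, Lbr and Sun1. The 2 that fell in early G1 were Sun2 and Banf1. Leaving 1 asynchronous library out of the full fit raised the number of calls both among the 38 and over all genes. The median log2 difference of the 38 against mitotic cells was then 0.02 in early and 0.01 in late G1. Over all genes it was -0.01 in both, whichever asynchronous library was left out. All 4 G1 libraries lay above both mitotic ones for 15 of the 38 (39.5%, against 25.2% of all genes) and below them for 5 (13.2%, against 24.7%), namely Nup85, Sec13, Lmnb2, Sun2 and Banf1. DESeq2 kept every call of the 38 made by edgeR and added Lbr and Lmna in mitotic against asynchronous, Nup205 in late G1 against asynchronous, Nup153 and Tpr in early G1 against mitotic and Nup153 in late G1 against mitotic cells. Without the filter on low counts edgeR also kept them all and added Emd, Lbr, Lemd3, Lmna and Nup160 in mitotic against asynchronous, Emd, Nup205 and Rae1 in late G1 against asynchronous, Lbr, Nup153, Nup155, Nup160, Nup205 and Tpr in early G1 against mitotic, and Lbr, Lemd2, Nup153, Nup155, Nup160 and Tpr in late G1 against mitotic cells. Macrophage markers fell in the comparisons of G1 with mitotic cells (8 of 10 lower in early G1, 7 of 10 in late G1), and their part was not tested.

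Between early and late G1 none of the 38 genes was called by edgeR, with log2 differences from -0.29 (Sun2 and Lemd2) to 0.20 (Lemd3) and a smallest unadjusted p of 0.0872. Of all genes 0% were called, with 724 at an unadjusted p under 0.05, and DESeq2 called 22 genes but 0 of the 38. In the fit of the 2 groups alone (8.44% of all genes called), 2 of the 38 fell, Lemd2 (-0.29, adjusted p = 0.0116) and Sun2 (-0.29, adjusted p = 0.024). Both late G1 libraries lay above both early G1 libraries for 8 genes (21.1%, against 24.4% of all genes) and below them for 10 (26.3%, against 25.9%).

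**Figure D1:**
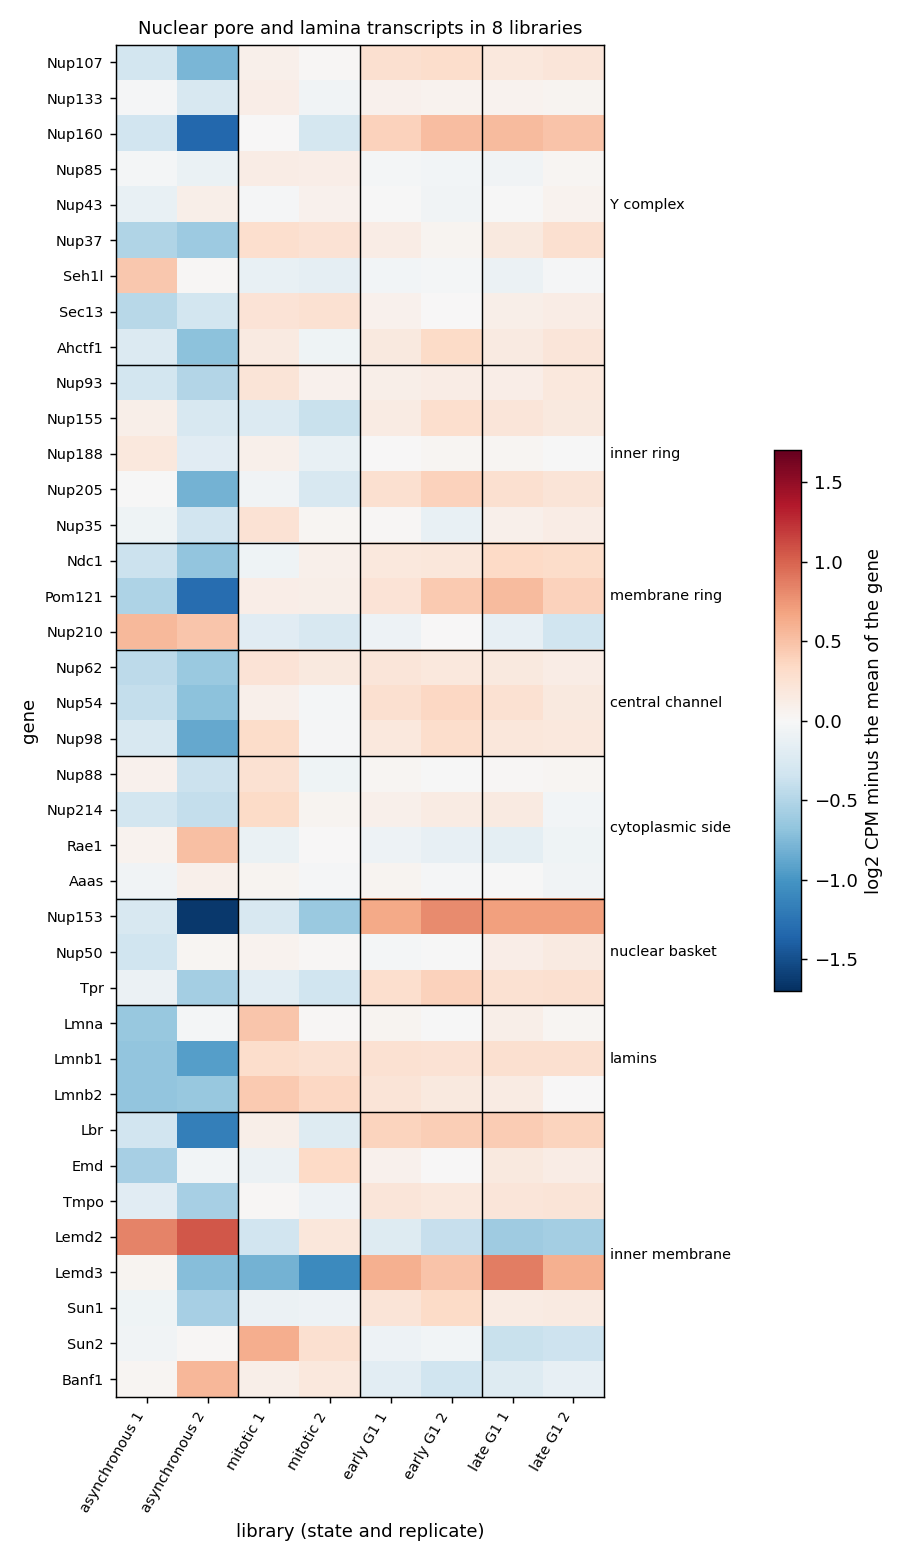
Level of each of the 38 genes in each of the 8 libraries, as log2 CPM minus the gene's own mean over the libraries (red above, blue below), with rows grouped by place in the pore or lamina and columns by state. The asynchronous columns are blue for most rows, while Lemd2 and Nup210 are red there, and replicate 2 is the darker blue column for Nup160, Pom121, Nup153 and Lbr.

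The 250 bases before the RefSeq start site nearest the outer end of the gene (build GRCm38.p6) are shown for 4 genes that stand for the main patterns: Nup37 and Nup210, which lay apart from asynchronous cells in opposite directions, Lemd3, which rose after release, and Sun2, highest in mitotic cells. Capitals mark letters that match a searched word on either strand. The words were TTTGAA with its variant TTCGAA for the cell cycle homology region (CHR), TTTCCCGC, TTTGGCGC, TTTCGCGC and TTCCCGCC for E2F, CGCATGCG for NRF1, CCGGAAG for ETS, AAGATGGC for YY1, and the box named CCAAT after its own letters. Matches of different words can overlap.
Nup37, chr10:88146742-88146991, plus strand: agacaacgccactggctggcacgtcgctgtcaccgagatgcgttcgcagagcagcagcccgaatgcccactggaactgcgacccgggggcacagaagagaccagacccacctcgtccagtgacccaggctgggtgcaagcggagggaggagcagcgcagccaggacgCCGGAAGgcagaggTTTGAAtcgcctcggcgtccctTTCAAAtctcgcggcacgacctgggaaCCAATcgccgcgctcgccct
Nup210, chr6:91116827-91117076, minus strand: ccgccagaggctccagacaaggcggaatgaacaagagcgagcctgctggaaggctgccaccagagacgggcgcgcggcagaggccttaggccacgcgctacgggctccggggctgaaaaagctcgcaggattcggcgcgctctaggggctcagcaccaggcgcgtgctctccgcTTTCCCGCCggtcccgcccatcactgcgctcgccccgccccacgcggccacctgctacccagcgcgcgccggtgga
Lemd3, chr10:120979331-120979580, minus strand: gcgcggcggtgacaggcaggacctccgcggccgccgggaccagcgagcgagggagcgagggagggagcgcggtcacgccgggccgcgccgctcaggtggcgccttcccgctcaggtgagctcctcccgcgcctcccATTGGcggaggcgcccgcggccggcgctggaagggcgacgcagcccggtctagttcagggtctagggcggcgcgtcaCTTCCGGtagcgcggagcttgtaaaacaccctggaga
Sun2, chr15:79742537-79742786, minus strand: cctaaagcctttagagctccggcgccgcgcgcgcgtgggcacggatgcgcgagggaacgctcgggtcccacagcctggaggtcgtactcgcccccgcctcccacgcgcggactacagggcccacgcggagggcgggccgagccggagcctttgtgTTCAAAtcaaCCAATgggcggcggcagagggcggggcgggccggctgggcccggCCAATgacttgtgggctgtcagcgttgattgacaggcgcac
Counting the first base of each match back from the start site, Nup37 held CHR words at 69 and 47 bases, an ETS word at 83 and CCAAT at 20. Nup210 held 2 overlapping E2F words at 76 and 75 bases and none of the others in this window. Its start site lay 1496 bases from the outer end of the RefSeq gene, against 16 for Nup37, 66 for Lemd3 and 0 for Sun2. Lemd3 held CCAAT at 114 and ETS at 37 bases, and Sun2 held a CHR word at 95 and CCAAT at 85 and 41 bases.

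RefSeq gave such a window for 32 of the 38 genes, and the same search was made in 17492 protein-coding genes. CHR words, the element known for binding the complexes that hold late cell cycle genes down in G1, were in 8 windows (25%, against 16.5% of all genes): those of Lbr, Ndc1, Nup37, Nup98, Pom121, Sec13, Sun2 and Tpr. CCAAT was in 16 (50%, against 36.5%), the ETS word in 7 (21.9%, against 9.15%), the NRF1 word in 3 (9.38%, against 2.08%; Nup107, Nup50 and Nup62), an E2F word in 2 (6.25%, against 3.95%; Banf1 and Nup210) and the YY1 word in 2 (6.25%, against 1.5%; Nup188 and Nup50). These are matches of letters in 1 window per gene, described without a test, and binding was not measured.

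The Y complex is the coat-like scaffold of the outer rings. Of its 9 genes 4 rose and 0 fell in mitotic against asynchronous cells (44.4% rose). In late G1 against asynchronous cells 5 rose and 0 fell (55.6% rose). Over all genes 18.3% rose and 22.4% fell in the first comparison, and 22.7% rose and 26% fell in the second. These shares also stand beside the counts of the smaller subgroups below. Nup37 (ENSMUSG00000035351, chr10:88146992-88178390), a small peripheral subunit, had 45.2 and 41.9 CPM in asynchronous cells, 78.9 and 76.4 in mitotic, 70.3 and 66.8 in early and 72.1 and 77.6 in late G1. All 6 synchronised libraries lay above the asynchronous ones, and the replicates of every state were close. The rise in mitotic cells was 1.78-fold (log2 difference 0.84, SE 0.119, adjusted p = 0.00134) and that in late G1 was 1.72-fold (log2 difference 0.78, SE 0.119, adjusted p = 0.00134). Sec13, which also belongs to the COPII coat of secretory vesicles, had 111 and 123 CPM in asynchronous, 179 and 182 in mitotic, 160.3 and 153 in early and 164 and 167 in late G1 libraries. It was highest in both mitotic libraries, 1.55-fold above asynchronous cells (log2 difference 0.63, SE 0.112, adjusted p = 0.00347), and the G1 libraries lay between the 2 states. Its difference between early G1 and mitotic cells was -0.20 (SE 0.112, adjusted p = 0.317).

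Nup107, a core scaffold subunit, had 118 and 85.7 CPM in asynchronous, 155 and 149 in mitotic, 177 and 180.0 in early and 166 and 169 in late G1 libraries. It stood higher in every synchronised library, 1.49-fold in mitotic (log2 difference 0.57, SE 0.156, adjusted p = 0.0198) and 1.65-fold in late G1 cells (log2 difference 0.72, SE 0.156, adjusted p = 0.00644). Ahctf1, which encodes ELYS, the chromatin-binding protein that seeds pore assembly after mitosis, had 187 and 136 CPM in asynchronous, 246 and 209.6 in mitotic, 248 and 276 in early and 246 and 254 in late G1 libraries. It rose 1.41-fold in mitotic cells, and that adjusted p of 0.045 was the weakest of the 14 rises. Its call was lost on leaving out any library but asynchronous replicate 1. Nup160 had 93.8 and 46.6 CPM in asynchronous libraries, the widest replicate gap of the Y complex, 119 and 95.4 in mitotic, 154 and 169.9 in early and 171 and 165 in late G1. It rose 2.39-fold in late G1 against asynchronous cells (log2 difference 1.26, SE 0.283, adjusted p = 0.00753), while its mitotic difference of 0.61 was not called (adjusted p = 0.117). The 4 G1 libraries lay above both mitotic ones, a difference of 0.60 in early G1 with adjusted p = 0.247 in edgeR's fit over all libraries and 0.0182 in its fit of those 2 groups.

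The other 4 Y complex genes, Nup133, Nup85, Nup43 and Seh1l, were not called by edgeR in any of the 5 comparisons. Seh1l, which also serves the GATOR complex that senses amino acids, had 239 and 176 CPM in asynchronous and 158 and 155 in mitotic libraries, with 168 and 170.1 in early and 162 and 171 in late G1. Both asynchronous libraries lay above the others, but far apart (mitotic against asynchronous log2 difference -0.40, SE 0.152, adjusted p = 0.0638). Nup43 lay between 109.8 and 128 CPM in all 8 libraries, both ends of that range being asynchronous.

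The inner ring lies between the outer rings and holds the channel proteins in place. Of its 5 genes edgeR called 1 in each comparison with asynchronous cells (20%, against 40.7% and 48.7% of all genes) and 0 in the others. That gene, Nup93, the linker that anchors the channel proteins, rose in both. Its libraries read 208 and 181 CPM in asynchronous, 300.3 and 271 in mitotic, 276 and 280.1 in early and 277 and 291 in late G1, with no overlap between asynchronous cells and the rest. The differences were 1.47-fold in mitotic (log2 difference 0.55, SE 0.121, adjusted p = 0.00837) and 1.46-fold in late G1 cells (log2 difference 0.55, SE 0.121, adjusted p = 0.0071). Nup155 and Nup205, large scaffold subunits, had another order. Nup155 had 132 and 102 CPM in asynchronous, 104 and 94.9 in mitotic, 136 and 149.8 in early and 142 and 138 in late G1 libraries, so that every G1 library lay above both mitotic ones. The difference in early G1 was 0.52 (SE 0.148, adjusted p = 0.0896), and 0.53 with adjusted p = 0.0165 in the fit of the 2 groups. Nup205 went from 163 and 140.0 CPM in mitotic to 204 and 223 in early G1 libraries (log2 difference 0.50, SE 0.227, adjusted p = 0.238; adjusted p = 0.0201 in the fit of the 2 groups), while its asynchronous libraries stood at 168 and 97.5 CPM. Its late G1 difference from asynchronous cells, 0.60, had adjusted p = 0.059 with edgeR and 0.0257 with DESeq2, which called it. Nup188 stayed within its asynchronous range of 235 to 303 CPM, and Nup35, the rarest transcript of the 38, stayed between 6.79 and 10.1 CPM.

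Among the membrane anchors, Ndc1 and Pom121 rose and Nup210 fell in both comparisons with asynchronous cells. Pom121, which takes part in inserting new pores into a closed envelope, had 71.2 and 41.7 CPM in asynchronous, 110.1 and 109 in mitotic, 120.3 and 138 in early and 148 and 134 in late G1 libraries. All 6 synchronised libraries lay higher, 1.94-fold in mitotic (log2 difference 0.96, SE 0.226, adjusted p = 0.0115) and 2.49-fold in late G1 cells (log2 difference 1.32, SE 0.227, adjusted p = 0.00235). Without either mitotic library its mitotic call was lost, and 11.9% of its exon bases lie opposite exons of Nsun5. Ndc1, a membrane protein shared by every pore, stood at 85.4 and 68.9 CPM in asynchronous, 104 and 117 in mitotic, 124 and 125 in early and 138 and 135 in late G1 libraries. The order of the 4 states did not overlap at any step, and the rise over asynchronous cells was 1.43-fold in mitotic (log2 difference 0.52, SE 0.136, adjusted p = 0.0178, and 0.0998 in the fit of the 2 groups) and 1.77-fold in late G1 cells (log2 difference 0.83, SE 0.137, adjusted p = 0.00197).

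Nup210 (ENSMUSG00000030091, chr6:91013068-91116829), the large anchor known for being switched on during differentiation of muscle and nerve cells, ran the other way. It had 102 and 96.5 CPM in asynchronous, 61.1 and 57.6 in mitotic, 65.6 and 70.2 in early and 63.3 and 55.1 in late G1 libraries. Both asynchronous libraries were clearly higher than the other 6, whose states overlapped in part. It fell 1.67-fold in mitotic (log2 difference -0.74, SE 0.125, adjusted p = 0.00282) and by 0.74 on the log2 scale in late G1 against asynchronous cells (SE 0.125, adjusted p = 0.00211). Its replicates in asynchronous cells differed by only a small step, unlike those of many long genes of the set.

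All 3 channel genes rose in mitotic and in late G1 against asynchronous cells (100%, against 18.3% and 22.7% of all genes). Nup62, the main channel protein, had 264 and 233 CPM in asynchronous, 422 and 404 in mitotic, 417 and 409 in early and 404 and 394 in late G1 libraries. The 3 synchronised states overlapped in part and all lay above asynchronous cells, 1.66-fold in mitotic (log2 difference 0.73, SE 0.113, adjusted p = 0.00188) and 1.61-fold in late G1 cells (log2 difference 0.68, SE 0.113, adjusted p = 0.00195). Its partner Nup54 read 45.5 and 37.1 CPM in asynchronous, 63.8 and 58.9 in mitotic, 72.9 and 76.8 in early and 72.0 and 67.8 in late G1 libraries, a rise of 1.48-fold in mitotic (adjusted p = 0.0133) and 1.69-fold in late G1 cells (adjusted p = 0.00308). Nup98, a mobile channel protein that also works at genes inside the nucleus, had 147 and 97.9 CPM in asynchronous and 221 and 176 in mitotic libraries, with gaps between replicates in both, and 202 and 218 in early and 204 and 201 in late G1. It rose 1.62-fold in mitotic (log2 difference 0.69, SE 0.198, adjusted p = 0.0243) and 1.65-fold in late G1 cells (log2 difference 0.72, SE 0.198, adjusted p = 0.0177). Nup58, the other member of the Nup62 complex, had 1 count in all 8 libraries, while a gene model on the same strand over it, Gm49336, had 962 to 2171 counts per library, so Nup58 was not measured as a gene of its own.

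On the cytoplasmic side edgeR called 1 of 4 genes in each comparison with asynchronous cells (25%, against 40.7% and 48.7% of all genes). In the other comparisons it called 0. The 1 gene was Nup214, which docks export complexes. It had 159.9 and 149 CPM in asynchronous, 247 and 204 in mitotic, 211 and 219 in early and 220.0 and 192 in late G1 libraries, above asynchronous cells in all 6. The rise was 1.46-fold in mitotic (log2 difference 0.55, SE 0.136, adjusted p = 0.0145) and 1.33-fold in late G1 cells (log2 difference 0.42, SE 0.136, adjusted p = 0.0346). Its partner Nup88 overlapped between asynchronous (205 and 152 CPM) and mitotic libraries (234 and 185 CPM). Rae1, an export factor that also guards the mitotic checkpoint, had 149.8 and 205 CPM in asynchronous libraries, above the 134 and 145 CPM of mitotic and the 128 and 136 CPM of late G1 libraries, yet the late G1 difference of -0.42 missed the threshold (SE 0.157, adjusted p = 0.0538). Aaas, which encodes aladin, lay between 180.0 and 199 CPM in all 8 libraries.

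Of the 3 basket genes, 0 were called in mitotic against asynchronous cells, where 40.7% of all genes were. In late G1 against asynchronous cells 2 rose, Nup153 and Tpr (66.7%, against 22.7% of all genes). Both stood higher in every G1 library than in the mitotic ones, as did 25.2% of all genes. Nup153 (ENSMUSG00000021374, chr13:46679905-46727940), which links the basket to the lamina, had 135 and 52.2 CPM in asynchronous, 135 and 105 in mitotic, 255 and 284 in early and 263 and 263 in late G1 libraries. The 4 G1 libraries stood well above the other 4, and the asynchronous replicates differed more than those of any other gene of the set (replicate 2 over replicate 1 = 0.387). The rise in late G1 over asynchronous cells was 2.81-fold (log2 difference 1.49, SE 0.365, adjusted p = 0.0108). Against mitotic cells, early G1 was 2.25-fold higher but not called by edgeR over all libraries (log2 difference 1.17, SE 0.362, adjusted p = 0.108), whereas DESeq2 gave adjusted p = 0.00885 and edgeR's fit of the 2 groups 0.00324. In late G1 against mitotic cells edgeR gave adjusted p = 0.0872 over all libraries and 0.00269 in the 2 groups, and DESeq2 0.00734.

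Tpr, the long coiled protein that forms the basket's filaments, had 257 and 184 CPM in asynchronous, 242 and 217 in mitotic, 333 and 359 in early and 327 and 331 in late G1 libraries. Asynchronous and mitotic cells overlapped, and the G1 libraries lay above both. The late G1 rise over asynchronous cells was 1.49-fold (log2 difference 0.58, SE 0.163, adjusted p = 0.0195), a call lost in the fit of the 2 groups (adjusted p = 0.0735). The early G1 difference from mitotic cells was 0.59, with adjusted p = 0.0806 with edgeR over all libraries, 0.00981 in the 2 groups and 0.0339 with DESeq2. Nup50, the mobile basket protein that helps to release import cargo, was not called by edgeR in any comparison. Its lowest library was asynchronous replicate 1 at 149 CPM and its highest late G1 replicate 2 at 209 CPM.

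All 3 lamin genes stood higher in every synchronised library than in the asynchronous ones, as did 23.2% of all genes. For Lmna this rested on 58.7 CPM in early G1 replicate 2 against 57.7 CPM in asynchronous replicate 2. EdgeR called Lmnb1 and Lmnb2 in both comparisons with asynchronous cells. Lmnb1 (ENSMUSG00000024590), which encodes lamin B1, had 315 and 262 CPM in asynchronous, 617 and 599 in mitotic, 600.3 and 594 in early and 605 and 609 in late G1 libraries. The 6 synchronised libraries were nearly level, and the difference between late G1 and mitotic cells was -0.0024 (SE 0.121). Against asynchronous cells the rise was 2.11-fold in mitotic (log2 difference 1.07, SE 0.123, adjusted p = 0.000535) and 2.1-fold in late G1 cells (log2 difference 1.07, SE 0.123, adjusted p = 0.000406). Lmnb2 (ENSMUSG00000062075, chr10:80901203-80918245), for lamin B2, had 87.2 and 88.6 CPM in asynchronous, 189 and 178 in mitotic, 162 and 155 in early and 153 and 139.8 in late G1 libraries. Its 4 states did not overlap, with the peak in mitotic cells, a 2.08-fold rise (log2 difference 1.06, SE 0.113, adjusted p = 0.000411). The later difference, -0.32 in late G1 against mitotic cells, was not called over all libraries (SE 0.112, adjusted p = 0.109) but was called in the fit of the 2 groups (adjusted p = 0.0482).

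Lmna, which encodes the A-type lamins, had 37.9 and 57.7 CPM in asynchronous libraries and 81.5 and 59.9 in mitotic ones, where replicate 2 fell short of replicate 1 by more than for any other gene of the set, with 61.1 and 58.7 in early and 63.4 and 60.3 in late G1. EdgeR called it in no comparison (mitotic against asynchronous 1.48-fold, log2 difference 0.57, SE 0.217, adjusted p = 0.0673), while DESeq2 called the mitotic difference (adjusted p = 0.0401). Per exon length the lamins ranked Lmnb1, Lmnb2, Lmna, with mean levels over the 4 states of 177, 33.6 and 10.3 RPKM (CPM per kilobase of exon). Lmnb1 ranked 2 of 38 on that scale, after Banf1 (194 RPKM) and before Nup62 (129 RPKM), and the lowest were Nup35 (2.54 RPKM), Lemd3 (5.42 RPKM) and Sun2 (6.00 RPKM). Within the scaffold, which holds its subunits in fixed proportions, RPKM levels in late G1 ran from 19.2 (Nup160) to 56.4 (Nup85) among the Y complex genes, leaving out Ahctf1 (16.6).

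**Figure D2:**
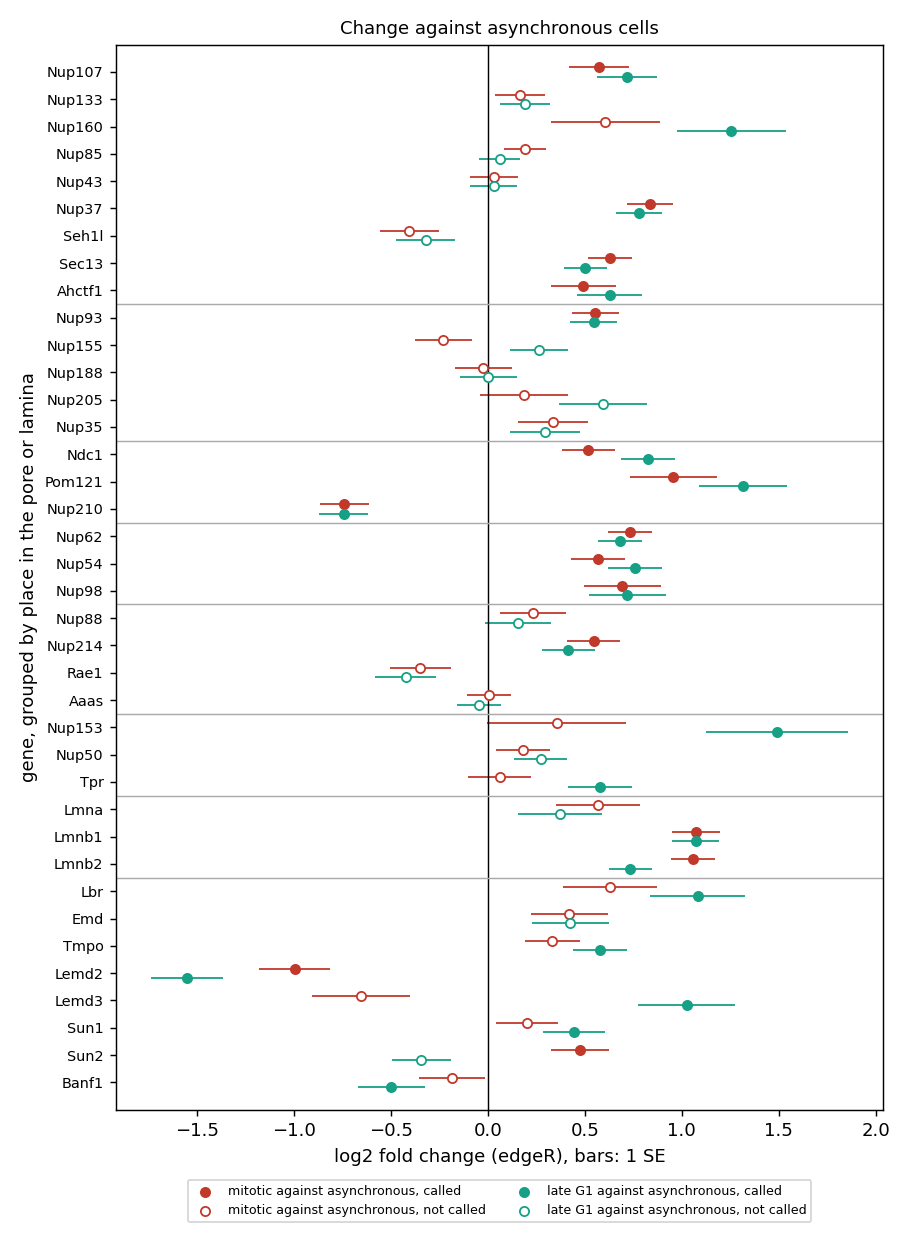
Log2 fold change of each of the 38 genes against asynchronous cells, for mitotic cells (red) and late G1 cells (green). Bars are 1 SE derived from edgeR's F, with filled circles for adjusted p under 0.05 and open circles for the rest. Both colours lie right of 0 for most genes, Nup210 and Lemd2 lie left for both, and Lemd3, Nup155, Sun2 and a few others lie on opposite sides for the 2 colours.

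The group of 8 genes of the inner nuclear membrane takes in Banf1, whose product is a DNA-bridging protein. Of the 8, 1 rose and 1 fell in mitotic against asynchronous cells. These were 12.5% each, against 18.3% and 22.4% of all genes. In late G1 against asynchronous cells 4 rose and 2 fell (50% and 25%, against 22.7% and 26% of all genes). Lemd3 (ENSMUSG00000048661, chr10:120923413-120979332) encodes MAN1, a LEM-domain protein that binds SMADs and limits TGF-beta and BMP signalling. Its libraries read 24.1 and 14.0 CPM in asynchronous, 13.3 and 11.0 in mitotic, 35.5 and 32.4 in early and 42.6 and 35.3 in late G1. The mitotic libraries were the lowest and the 4 G1 libraries lay above all others. Early G1 stood 2.8-fold above mitotic cells (log2 difference 1.48, SE 0.254, adjusted p = 0.0202), late G1 3.21-fold above mitotic (log2 difference 1.68, SE 0.255, adjusted p = 0.00945) and 2.04-fold above asynchronous cells (log2 difference 1.03, SE 0.25, adjusted p = 0.0106). The early G1 call was lost on leaving out any mitotic, early G1 or late G1 library and held in the fit of the 2 groups (adjusted p = 0.00208). The call in late G1 against mitotic cells was lost without any mitotic or late G1 library. The difference between mitotic and asynchronous cells, -0.66, was not called (SE 0.253, adjusted p = 0.0694).

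Lemd2 (ENSMUSG00000044857, chr17:27189600-27204469), another LEM-domain gene whose protein helps to reseal the envelope at mitotic exit, went the opposite way. It had 105 and 121 CPM in asynchronous, 46.5 and 66.7 in mitotic, 50.01 and 44.4 in early and 38.2 and 38.8 in late G1 libraries. Asynchronous cells were far above all others, and the lowest values were those of late G1. The fall was 1.99-fold in mitotic (log2 difference -0.996, SE 0.182, adjusted p = 0.00386) and 2.93-fold in late G1 cells (log2 difference -1.55, SE 0.185, adjusted p = 0.000477), the largest change of the set against asynchronous cells by log2 size. Emd, which encodes emerin, was not called by edgeR in any comparison. Its libraries read 95.0 and 137 CPM in asynchronous and 132 and 178 in mitotic cells, with overlap between these states.

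Sun1 and Sun2, the inner membrane parts of the bridges that join the nucleus to the cytoskeleton, were highest in different states. Sun2 (ENSMUSG00000042524, chr15:79724070-79742536) had 30.5 and 32.3 CPM in asynchronous, 48.9 and 38.4 in mitotic, 29.9 and 30.8 in early and 24.5 and 25.0 in late G1 libraries. It was highest in both mitotic libraries and lowest in both late G1 ones. It rose 1.39-fold in mitotic against asynchronous cells (log2 difference 0.48, SE 0.151, adjusted p = 0.0356) and fell 1.76-fold from mitotic to late G1 (log2 difference -0.82, SE 0.152, adjusted p = 0.0172). Both calls were lost without mitotic replicate 1, the higher mitotic library, and without any of the 4 G1 libraries. Sun1 had 227 and 162 CPM in asynchronous, 223 and 224 in mitotic, 277 and 299 in early and 264 and 265 in late G1 libraries, highest in G1. It rose 1.36-fold in late G1 against asynchronous cells (log2 difference 0.44, SE 0.16, adjusted p = 0.0484), a call lost without asynchronous replicate 2, either mitotic or either early or late G1 library.

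Lbr, the lamin B receptor that ties heterochromatin to the membrane and is also a sterol reductase, had 133 and 74.5 CPM in asynchronous, 178 and 144 in mitotic, 216 and 223 in early and 225 and 216 in late G1 libraries. Each step upward to early G1 was free of overlap. The late G1 level was 2.12-fold that of asynchronous cells (log2 difference 1.08, SE 0.244, adjusted p = 0.00757), and the mitotic difference of 0.63 was not called by edgeR (adjusted p = 0.0691) but was by DESeq2 (adjusted p = 0.0249). Tmpo, which encodes the lamina-associated polypeptides called LAP2, showed the same order with 217 and 167 CPM in asynchronous, 251 and 233 in mitotic, 286 and 279.9 in early and 286 and 288 in late G1 libraries. It rose 1.49-fold in late G1 against asynchronous cells (log2 difference 0.58, SE 0.14, adjusted p = 0.0103). Banf1, the small DNA-bridging protein BAF that gathers chromosomes into 1 nucleus, had 291 and 421 CPM in asynchronous, 305 and 321 in mitotic, 252 and 226 in early and 246 and 258 in late G1 libraries. The G1 libraries were the lowest, and the fall in late G1 against asynchronous cells was by 0.50 on the log2 scale (SE 0.173, adjusted p = 0.0427), a call lost without asynchronous replicate 2 or any mitotic or G1 library. Of its exon bases 28.6% lie opposite exons of Eif1ad, and the strand setting of the counting is not given in the sources used here.

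**Figure D3:**
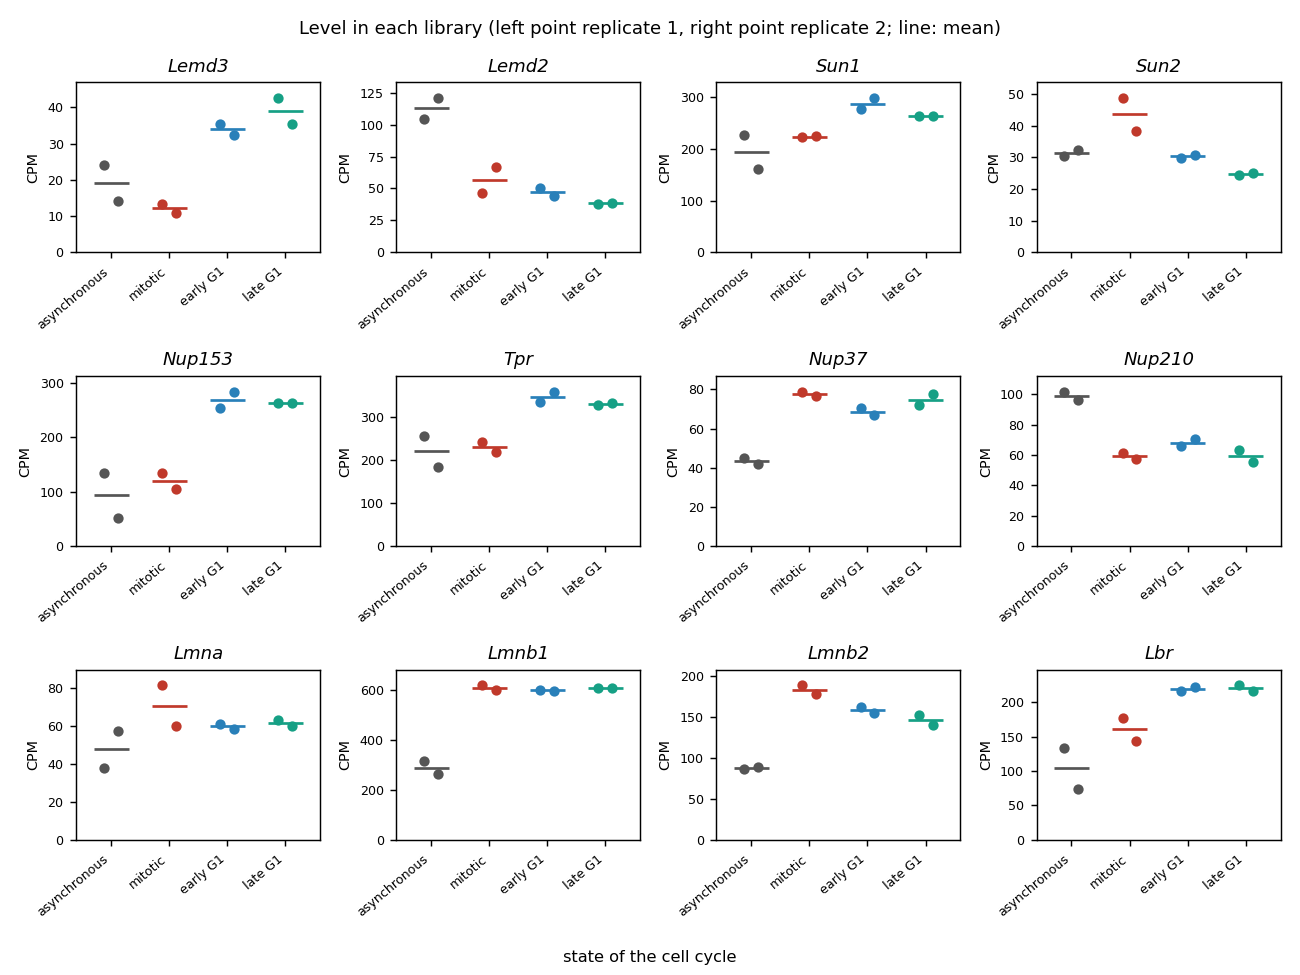
CPM of 12 genes in each library (left point replicate 1, right point replicate 2, line at the mean of the 2), with each panel's axis starting at 0. Lemd3, Nup153 and Tpr stand higher in every G1 library than in both mitotic ones. Lemd2 and Nup210 are highest in asynchronous cells, and Sun2 peaks in mitotic cells. The paired points of Nup153, Tpr, Sun1 and Lbr lie apart in asynchronous and close in G1 cells. Those of Lmnb2, Sun2, Nup37 and Nup210 lie close in asynchronous cells too.

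The replicates of the asynchronous state differed for many of these genes. The ratio of replicate 2 to replicate 1 ran from 0.387 (Nup153) to 1.52 (Lmna), with 24 of the 38 apart by more than 1.2-fold and 8 by more than 1.5-fold. In mitotic cells it ran from 0.735 (Lmna) to 1.43 (Lemd2), with 11 apart by more than 1.2-fold. In early G1 it ran from 0.888 to 1.15, and in late G1 from 0.828 (Lemd3, the only gene that far apart there) to 1.08 (Nup37). Asynchronous replicate 2 was the lower for 27 of the 38, namely 16 of the 19 genes with longer exon length (median ratio 0.771) and 11 of the 19 with shorter (median 0.928). Over the 38 genes Spearman's rho between exon length and the log2 ratio was -0.55 in asynchronous, -0.58 in mitotic, 0.66 in early and -0.31 in late G1 cells. Over 14739 protein-coding genes it was -0.41, -0.18, 0.29 and -0.10. Between exon length and the difference between states, rho was 0.47 over the 38 genes and 0.18 over all for early G1 against mitotic, -0.07 and 0.13 for mitotic against asynchronous, and 0.13 and 0.17 for late G1 against asynchronous cells. These are descriptions across genes that share their libraries, and the part of exon length in the differences between states was not tested.

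**Figure D4:**
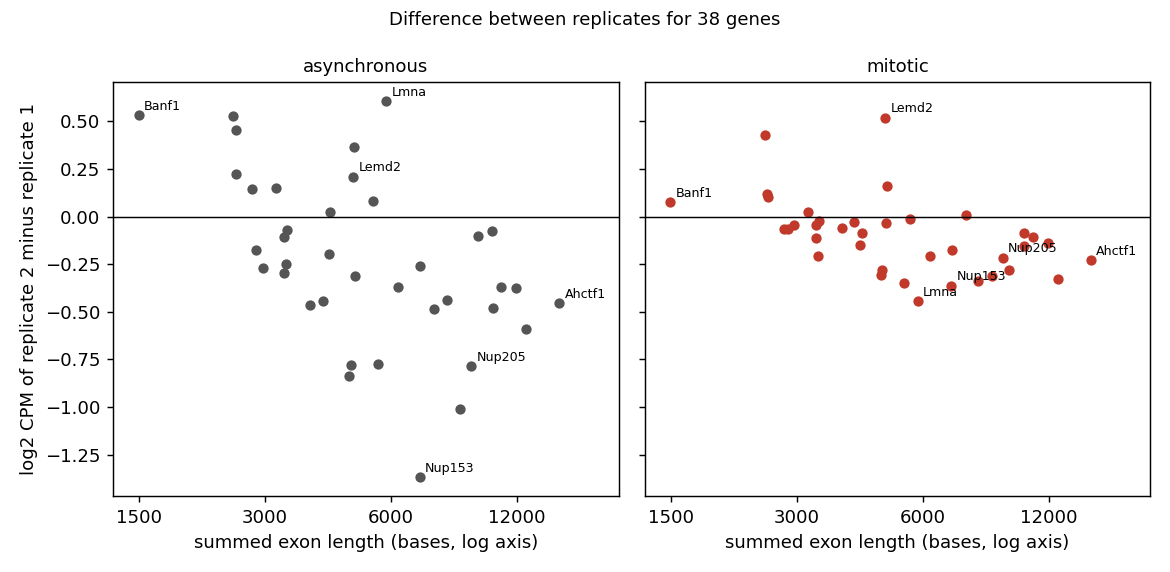
Log2 CPM of replicate 2 minus replicate 1 for each of the 38 genes against summed exon length in bases (log axis), in asynchronous (left) and mitotic cells (right). Long genes such as Nup205 and Ahctf1 lie below 0 in both panels, Nup153 lies lowest in asynchronous cells, and the shortest gene, Banf1, lies above 0.

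Other genes of the pore and envelope, and the transport machinery that works through the pore, were counted from fixed lists. Of 38 tested genes of other pore proteins, envelope remodelling and LINC partners (39 listed), 9 were higher and 5 lower in mitotic against asynchronous cells (36.8% called, against 40.7% of all genes), and 14 were higher and 6 lower in late G1 against asynchronous cells (52.6%, against 48.7%). Nup42, a cytoplasmic filament protein, rose 2.18-fold in mitotic cells (log2 difference 1.13, SE 0.148, adjusted p = 0.000947). The ESCRT machinery seals the new envelope. Of its 6 listed genes 2 fell there, Ist1 1.98-fold and Chmp2a 2.5-fold (adjusted p = 0.00159 and 0.00323). The 1 that rose, Chmp7 at 1.29-fold (adjusted p = 0.0277), was named after its values were seen. Over all genes 22.4% fell there and 18.3% rose. In early G1 against mitotic cells 3 of the 38 listed genes were higher and 0 lower (7.89% called, against 4.63%). Lpin1, a phosphatidate phosphatase that limits membrane lipid synthesis, had 40.7 and 47.9 CPM in mitotic, 93.4 and 94.9 in early and 129 and 122 in late G1 libraries, a 2.13-fold rise (log2 difference 1.09, SE 0.141, adjusted p = 0.00816). Tmem43, an inner membrane partner of emerin and lamins, rose 1.82-fold (adjusted p = 0.0161) and Tor1b, a torsin ATPase of the envelope lumen, 1.44-fold (adjusted p = 0.0486).

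Of 32 transport receptors and genes of the Ran system, 13 were higher and 1 lower in mitotic against asynchronous cells (40.6% and 3.12%, against 18.3% and 22.4% of all genes), with a median log2 difference of 0.39 beside -0.05 over all genes. In late G1 against asynchronous cells 21 were higher and 0 lower (65.6% and 0%, against 22.7% and 26%), with a median of 0.58 beside -0.03. Rcc1, the chromatin-bound exchange factor that loads Ran with GTP, had 168 and 169 CPM in asynchronous, 338 and 311 in mitotic, 297 and 281 in early and 293 and 289.8 in late G1 libraries, a 1.93-fold rise in mitotic cells (log2 difference 0.95, SE 0.109, adjusted p = 0.000566). The import receptors Ipo13 and Ipo4 rose 2.53-fold and 1.99-fold there (adjusted p = 0.000768 and 0.000951). Kpna2, an importin alpha adaptor for import cargo, was the 1 that fell there. It had 19.2 and 9.53 CPM in asynchronous, 5.01 and 4.75 in mitotic, 17.8 and 18.0 in early and 17.1 and 13.8 in late G1 libraries. It fell by 1.56 on the log2 scale in mitotic against asynchronous cells and rose 3.66-fold in early G1 against mitotic cells (log2 difference 1.87, SE 0.309, adjusted p = 0.0178), the only transport gene called in that comparison. A near copy, Kpna2-ps, is annotated in the genome, and how reads shared with it were counted is not given in the sources used here.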

How the data were processed

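The 8 libraries were made from poly(A) RNA with a strand-marking kit and read from 1 end (50 bases), per the labels' protocols; the RNA extraction step is described for asynchronous cells only. TopHat2, SAMtools, HTSeq and build mm10 are named, without versions, per the submitters' processing notes. Neither the strand setting used for counting nor the release of the gene annotation is stated (not given in the sources used here). What the authors deposited are raw counts, without normalisation, for 54838 Ensembl genes, of which 20402 were at 0 in every library. Symbols (54809 genes, 99.9%) and coordinates are from GENCODE M21 on GRCm38 (mm10), 1-based.

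The titles put 2 libraries in each of 4 states. In R 4.3.3, genes were filtered with filterByExpr (minimum count 10) and scaled by TMM, and edgeR 4.0.16 quasi-likelihood tests with robust dispersion used all 8 libraries and no replicate block, two-sided, with Benjamini-Hochberg adjustment over all genes tested. CPM, RPKM (summed exon length) and fold changes were computed from the counts. The SE given with edgeR's log2 differences is their absolute value divided by the square root of the test's F. Total counts allow a floor of 3 counts per library, which covers counting error only. DESeq2 1.42.0, RLE size factors, no filter, fits of the 2 groups compared, a replicate block and each library left out were the alternatives; a term for replicate 1 of asynchronous and mitotic cells, leaving both those libraries out, and total counts without TMM were added after seeing the data. The tests were also run on simulated data. These had the same spread in every state, unlike the real libraries, so that run cannot check calls under unequal spread. All 38 genes could be named, and from each related list the called genes with the 3 smallest p per comparison. The genes and lists were chosen with earlier results of these data known. Of the 38 genes 15 share exon bases with a gene on the other strand and 7 with one on the same strand, so their counts are uncertain to that extent. Nup58 and Nup42 were matched under the older symbols of the annotation.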

Additional observations from a re-analysis of the deposited data

How the results depend on the processing

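For mitotic against asynchronous cells, where 14 of the 38 genes were higher and 2 lower, the fit of the 2 groups alone gave 3883 genes in all and 6 higher of the 38. The term for replicate 1 of asynchronous and mitotic cells gave 5 lower, and leaving both those libraries out gave 11700 genes, 25 higher and 4 lower. For early G1 against mitotic cells (885 genes in all, 1 higher and 0 lower of the 38), DESeq2 gave 3 higher, no filter 2362 genes and 7 higher, the 2 groups alone 2759 genes, 8 higher and 2 lower, the term 5882 genes, 13 higher and 4 lower, and leaving both libraries out 7918 genes, 15 higher and 5 lower. For late G1 against mitotic cells (1810 genes, 1 higher and 1 lower), DESeq2 gave 2 higher, no filter 3289 genes, 6 higher and 2 lower, the 2 groups alone 3959 genes, 8 higher and 2 lower, the term 6593 genes, 12 higher and 4 lower, and leaving both out 8525 genes, 15 higher and 5 lower. For late G1 against early G1 (0 genes), DESeq2 called 22 genes, no filter 58, the 2 groups alone 1493 with 2 of the 38 lower, the term 16, and leaving both out 1518 with 2 of the 38 lower. For late G1 against asynchronous cells (9305 genes, 20 higher and 3 lower), the term gave 11932 genes, 25 higher and 4 lower. With both libraries left out the median log2 difference of the 38 there was 0.56, beside 0.47 in the fit over all 8. Leaving both out leaves 1 asynchronous and 1 mitotic library, and the spread is then taken from the G1 libraries. Most counts that moved little are left out of this paragraph. The cause of these shifts was not tested, beyond the smaller number of libraries in the fits that leave some out.

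With 1 library left out at a time, mitotic against asynchronous cells gave 4737 to 10382 genes, with 6 to 23 of the 38 higher and 2 to 5 lower. Early G1 against mitotic gave 42 to 4518 genes, 0 to 10 higher and 0 to 2 lower. Late G1 against mitotic gave 73 to 5546 genes, 0 to 11 higher and 0 to 4 lower. Late G1 against early G1 gave 0 to 25 genes and 0 of the 38, and late G1 against asynchronous 5096 to 11489 genes, 12 to 24 higher and 2 to 4 lower. A library left alone in its state was assumed to vary like the other states.

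Among genes called in a comparison under at least 1 setting, changes of sign occurred in 19 cases. None of these genes was called in that comparison by edgeR's fit over all libraries. Sign changes of genes called under no setting were not counted, and the causes were not tested. With 1 library left out at a time, mitotic against asynchronous ranged from -0.16 to 0.64 for Nup205, -0.17 to 1.21 for Nup153, -0.16 to 0.33 for Tpr, -0.021 to 0.47 for Sun1 and 0.10 to -0.42 for Banf1, the first value of each without asynchronous replicate 2 and the other without asynchronous replicate 1. So did late G1 against asynchronous, from -0.17 to 0.20 for Nup188 and -0.048 to 0.40 for Nup88. Early G1 against mitotic ranged from -0.074 to 0.25 for Nup98, 0.13 to -0.30 for Emd and 0.019 to -0.50 for Lemd2, the first without mitotic replicate 2 and the other without mitotic replicate 1. Late G1 against mitotic likewise ranged from -0.13 to 0.20 for Nup98 and 0.23 to -0.20 for Emd. For Emd there it was also -0.0032 with DESeq2, -0.22 with the term and -0.20 without both libraries, and Nup50 was at -0.0026 in mitotic against asynchronous cells without both.

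Replicate numbers are shared by the states, but the labels do not say that a number marks a clone or a batch. Over 11706 genes the deviations of same-numbered libraries correlated at 0.62 between asynchronous and mitotic cells, at -0.38 between asynchronous and early G1 cells and between -0.15 and 0.07 for the other pairs, so the numbers were not taken to pair the samples. With the replicate block, 15 of the 38 were higher and 3 lower in mitotic against asynchronous cells (7889 genes in all), 1 and 0 in early G1 against mitotic (803), 0 and 0 in late G1 against early G1, 1 and 1 in late G1 against mitotic (1744), and 21 and 4 in late G1 against asynchronous cells (9430).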

Other observations

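The 3 genes of the list of other pore and envelope genes with the smallest p in late G1 against asynchronous cells were Tmem43, Tor1b and Ankle1. Their late G1 libraries lay farther from asynchronous cells than the early G1 ones, an order that this choice favours. None passed the edgeR test between early and late G1. Lpin1 had the same order (70.5 and 58.7 CPM in asynchronous, 93.4 and 94.9 in early and 129 and 122 in late G1 libraries). Tmem43 had 66.7 and 52.7 CPM in asynchronous, 71.8 and 70.8 in mitotic, 133 and 127 in early and 159.9 and 163 in late G1 libraries, and was 2.70-fold higher in late G1 than in asynchronous cells (log2 difference 1.43, SE 0.138, adjusted p = 0.000217). Tor1b had 48.8 and 44.5 CPM in asynchronous, 56.4 and 51.8 in mitotic, 75.7 and 80.3 in early and 95.6 and 97.6 in late G1 libraries, 2.07-fold higher in late G1 than in asynchronous cells (adjusted p = 0.00042). Ankle1, a LEM-domain endonuclease, ran the other way with 20.3 and 24.6 CPM in asynchronous, 12.9 and 12.9 in mitotic, 12.5 and 10.8 in early and 8.25 and 8.07 in late G1 libraries, a 2.74-fold fall against asynchronous cells (log2 difference -1.46, SE 0.169, adjusted p = 0.000426). The importin Ipo5 had 533 and 538 CPM in asynchronous, 623 and 591 in mitotic, 527 and 540.1 in early and 455 and 467 in late G1 libraries, and fell by 0.40 on the log2 scale from mitotic to late G1 cells (SE 0.104, adjusted p = 0.0496).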
